A study of Mus musculus with 6 samples.

Results

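The 10 genes described here encode the MLL and SET1 histone methyltransferases and the proteins that bind them. They were taken by symbol from a table of 26898 genes measured by RNA sequencing in primary mouse embryonic fibroblasts (MEFs), and all 10 were present and expressed above the filter on low values. The catalytic subunits were Kmt2a (MLL1), Kmt2b (MLL2), Kmt2c (MLL3), Kmt2d (MLL4), Setd1a and Setd1b, the shared core subunits were Wdr5, Rbbp5 and Ash2l, and the cofactor was Hcfc1. The cells were MEFs of C57BL/6 background at passage 3, a primary culture of connective tissue cells grown from mid-gestation embryos. WT cells carried Kansl1 alleles flanked by recombination sites (Kansl1 fl/fl), and KO cells carried the same alleles together with CAG-cre, a tamoxifen-inducible Cre recombinase expressed from the ubiquitous CAG promoter. Cells of both genotypes received 1 μM tamoxifen for 48 h. The samples were WT 4, WT 5 and WT 8 and KO 3, KO 7 and KO 10, with 3 mice per genotype in the study. No Cre-positive cells with intact Kansl1 were analysed here, so loss of Kansl1 and the presence of Cre cannot be told apart.

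MLL and SET1 enzymes place methyl groups on lysine 4 of histone H3 (H3K4), a mark found at promoters and enhancers. SETD1A and SETD1B account for most H3K4 trimethylation at active promoters, MLL1 and MLL2 act at selected promoters such as those of homeobox genes, and MLL3 and MLL4 mainly place a single methyl group at enhancers. Each enzyme is weak alone and is activated by a core module of WDR5, RBBP5, ASH2L and DPY30. WDR5 and HCFC1 are also subunits of the NSL complex, the histone H4 acetyltransferase complex that KANSL1 scaffolds, so 2 of the 10 genes encode proteins common to both machineries. The comparison of KO with WT therefore shows whether the transcripts of the shared and the unshared subunits differed once Kansl1 was lowered.

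Kansl1 itself was measured at 28.5, 26.7 and 24.4 TPM in WT 4, 5 and 8 and at 13.7, 15.8 and 14.4 TPM in KO 3, 7 and 10. TPM, a transcript abundance, divides the reads of a gene by its length and scales each sample to the same total. The KO mean was 55.1% of WT (log2 fold change -0.82, SE 0.11, limma adjusted p = 0.000859), and the groups did not overlap. Without KO 10 the adjusted p was 0.00608, above the threshold for a call. The samples held between 17654338 and 27716119 reads assigned to genes. KO 3 had the fewest and KO 7 the most. A single 57 bp RNA, Gm23935, took between 15.5% and 25.6% of TPM, which lowers the other values of samples where it was high. All 8 fibroblast markers were tested and none was called changed. They summed to 7098 to 11090 TPM in WT and 8120 to 10690 TPM in KO, which was mostly Col1a1, Vim and Col1a2, whereas Lum, Dcn and Pdgfra were low. The lowest sums were those of WT 4 and KO 3. Col1a1 was at 3080 TPM in WT 4 against 5805 and 4958 TPM in WT 5 and 8. In KO 3 it was at 4195 TPM against 5809 and 5352 TPM in KO 7 and KO 10. Vim did not share this in WT 4, at 2522 TPM against 2419 and 2228 TPM in WT 5 and 8. Lum was at 1.51 to 4.66 TPM in WT and 4.44 to 8.78 TPM in KO (202% of WT, limma adjusted p = 0.0700) and Dcn at 148% of WT (limma adjusted p = 0.221), with overlapping groups. The 6 macrophage markers summed to 12.9 to 14.0 TPM in WT and 16.5 to 29.0 TPM in KO. Of these, Adgre1, Cd68 and Csf1r were higher in every KO sample than in every WT sample. They stood at 272%, 203% and 240% of WT (limma adjusted p = 0.0249, 0.0173 and 0.0229). Cd14, the most abundant of the list in WT (mean 6.04 TPM), overlapped between the groups at 107% of WT (limma adjusted p = 0.724). None of the 4 tested passed the call. The untested Ptprc and Itgam overlapped between the groups and stayed at or below 0.26 and 0.38 TPM in every sample. The 4 epithelial markers summed to 40.4 to 45.7 TPM in WT and 49.2 to 66.3 TPM in KO, with Krt8 at 187% of WT (limma adjusted p = 0.0446) and Krt18 at 130% (limma adjusted p = 0.0741). The 4 endothelial markers summed to 1.10 to 1.87 TPM in WT and 2.32 to 3.10 TPM in KO, with Kdr at 187% of WT (limma adjusted p = 0.0768). Krt8, Krt18 and Kdr were higher in every KO sample than in every WT sample and did not pass the call, and Epcam, Cdh1, Pecam1 and Cdh5 averaged under 1 TPM in both groups. The neural markers summed to 2.46 to 7.19 TPM in WT and 3.48 to 4.39 TPM in KO. The muscle markers summed to 0.79 to 1.93 TPM in WT and 0.81 to 3.12 TPM in KO. In both lists the sums overlapped between the groups and no gene was called. The part of such cells in the values below was not tested. KO 7 expressed Xist at 117 TPM and held no reads of Ddx3y, Eif2s3y, Uty or Kdm5d, whereas the other 5 samples expressed these Y-linked genes and had Xist at or below 0.023 TPM.

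Of the 10 genes, Rbbp5 alone passed the call, at a limma adjusted p under 0.005 and a log2 fold change beyond 0.5, and it was lower in KO. Across the 14799 genes tested, 1579 passed the call (10.7%), of which 1337 were lower in KO (9.03% of those tested) and 242 were higher (1.64%). A count of 1 in 10 is thus close to the background. At an unadjusted p under 0.05 there were 3 of the 10 genes (Rbbp5, Kmt2d and Ash2l), against 39.4% of all genes tested. Ash2l and Hcfc1 did not pass the call, but like Rbbp5 they were lower in all 3 KO samples than in any WT sample. Kmt2d and Kmt2b, which also did not pass it, were higher in all 3 KO samples than in any WT sample. Groups that did not overlap were frequent in these data, with KO lower for 4427 genes (29.9%) and KO higher for 1961 genes (13.3%), against 3 and 2 of the 10 genes. The median log2 fold change of the 10 genes was 0.05, against -0.07 over all genes tested, for which the 10th and 90th percentiles were -0.75 and 0.43.

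**Figure D1:**
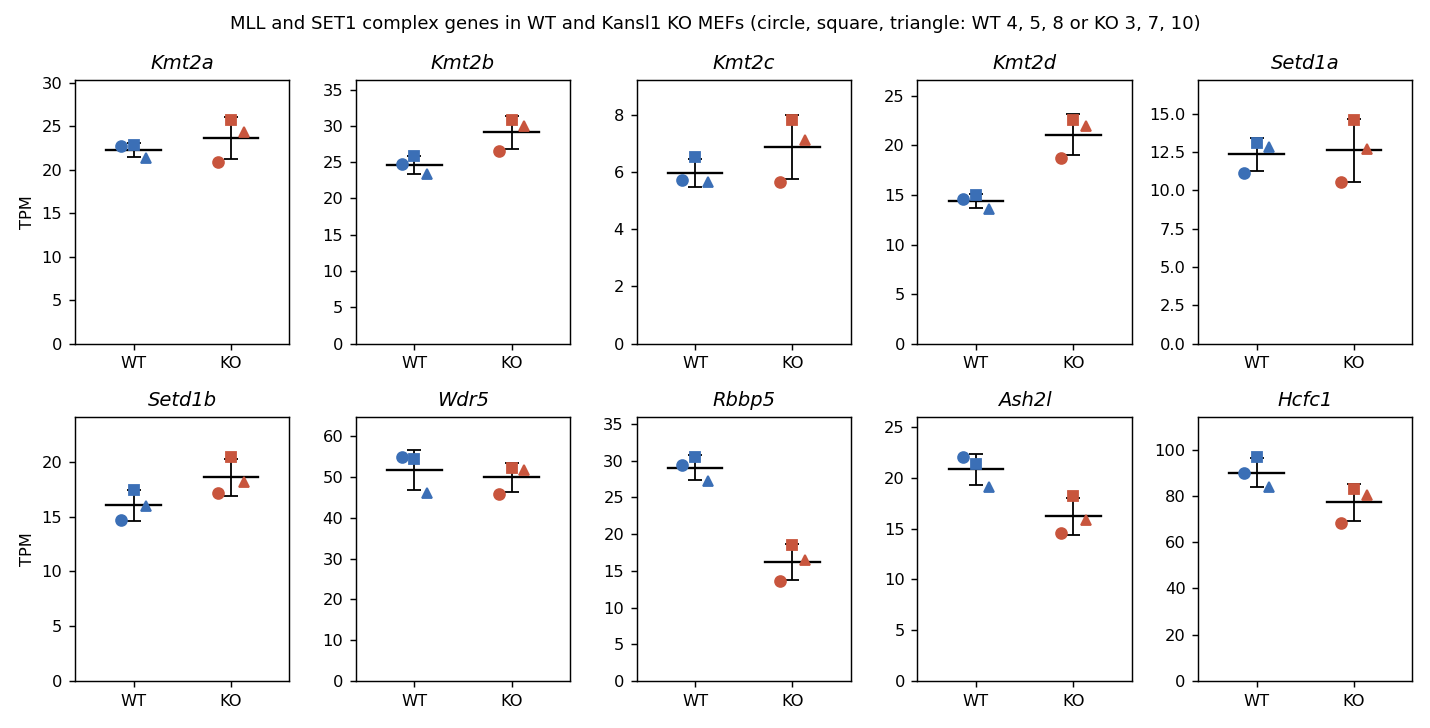
Expression in TPM (y axis, from 0) of each of the 10 genes in 3 WT and 3 KO samples. Points are samples, the horizontal line is the mean and the bars are the SD. Rbbp5 fell from 29.0 to 16.2 TPM on average, Kmt2d stood at 14.4 TPM in WT and 21.1 TPM in KO, and Wdr5 overlapped between the groups.

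The core subunits are described first. RBBP5, a WD-repeat protein that joins ASH2L to WDR5 and helps position the catalytic SET domain, is encoded on chromosome 1 (chr1:132477365-132505659, plus strand, mm10). Rbbp5 was measured at 29.5, 30.5 and 27.2 TPM in WT and at 13.7, 18.5 and 16.4 TPM in KO. Every KO sample lay below every WT sample, and the highest KO value was well under the lowest WT value. The mean fell from 29.0 ± 1.69 TPM to 16.2 ± 2.40 TPM (SD, n = 3 each), or to 55.8% of WT, which is a log2 fold change of -0.81 (SE 0.13) with a limma adjusted p of 0.00165. Its exons overlapped no other annotated gene. Counted as reads, WT samples held 939, 1050 and 1013 and KO samples 391, 703 and 577, the lowest read number of any of the 10 genes being that of Rbbp5 in KO 3. The size of the fall was stable while its call was not. With 1 sample left out the log2 fold change stayed between -0.91 and -0.70, but the limma adjusted p rose above 0.005 without WT 4 (0.0056), WT 5 (0.0077), KO 3 (0.0051) or KO 10 (0.0078). It was 0.00887 when all 26898 genes were tested without a filter.

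WDR5 is the WD-repeat hub that binds the catalytic subunits at a short arginine-containing motif and also joins the NSL complex through KANSL1. Wdr5 (chr2:27515157-27536535, plus strand, mm10) was measured at 54.9, 54.5 and 46.2 TPM in WT and at 45.8, 52.3 and 51.7 TPM in KO. The groups overlapped. The log2 fold change was -0.05 (SE 0.11, limma adjusted p = 0.762), and its sign turned to 0.05 with median-of-ratios scaling and to 0.01 without KO 3.

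ASH2L pairs with RBBP5 and contacts the nucleosome. Ash2l (chr8:25815996-25847694, minus strand, mm10) was measured at 22.04, 21.4 and 19.2 TPM in WT and at 14.6, 18.2 and 15.9 TPM in KO. All KO samples lay below all WT samples, KO 7 and WT 8 being the closest pair. The KO mean was 77.9% of WT (log2 fold change -0.34, SE 0.12), and this did not pass the test (limma adjusted p = 0.0551). The adjusted p was 0.00353 with removal of the 2 most abundant RNAs and 0.00114 with voom, and from 0.00981 to 0.174 under the other alternatives, with log2 fold changes from -0.43 to -0.25 that did not reach the limit of the call.

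HCFC1, host cell factor 1, is a large chromatin adaptor present in the SET1, MLL1 and MLL2 complexes and in the NSL complex. Hcfc1 (chrX:73942792-73966357, minus strand, mm10) was the most abundant of the 10, at 89.8, 96.8 and 83.9 TPM in WT and 68.2, 83.1 and 80.4 TPM in KO. KO samples again lay below WT samples, although KO 7 and WT 8 were nearly equal. The KO mean was 85.7% of WT (log2 fold change -0.22, SE 0.11, limma adjusted p = 0.162). Over the alternatives the log2 fold change of Hcfc1 ranged from -0.28 (without KO 7) to -0.12 (with median-of-ratios scaling), and it was -0.14 without KO 3. KO 7 was the sample that expressed Xist, and the part of sex in the values of this X-linked gene was not tested. The limma adjusted p ranged from 0.012 to 0.412. Of the pair shared with the NSL complex, neither gene passed the test.

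All 6 catalytic genes had fitted log2 fold changes above 0, with a median of 0.18, and none passed the call. Kmt2d showed the largest. MLL4 is the main enhancer H3K4 monomethyltransferase in many cell types, and its gene lies on chromosome 15 (chr15:98831669-98871204, minus strand, mm10). Kmt2d was measured at 14.6, 15.0 and 13.6 TPM in WT and at 18.7, 22.6 and 21.9 TPM in KO. The groups were well apart. The mean was 14.4 ± 0.747 TPM in WT and 21.1 ± 2.07 TPM in KO (SD, n = 3 each), or 146% of WT, with a log2 fold change of 0.52 (SE 0.11). The limma adjusted p of 0.00857 missed the threshold of 0.005. Kmt2d passed the same call with removal of the 2 most abundant RNAs (0.54, adjusted p = 0.000767), with median-of-ratios scaling (0.62, adjusted p = 0.000473), with a filter at a mean of 10 TPM (adjusted p = 0.00233) and with voom on recovered reads (0.57, adjusted p = 5.85e-05). It did not pass without a filter (adjusted p = 0.0205), without the variance trend (adjusted p = 0.0156), with a pseudocount of 0.1 (adjusted p = 0.00891) or with any 1 sample left out (adjusted p from 0.0073 to 0.0517). Over all alternatives its log2 fold change ranged from 0.47 to 0.62, and it was under the limit of 0.5 without WT 8 (0.48), KO 7 (0.47) or KO 10 (0.49).

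MLL3, the close paralog of MLL4, is encoded by Kmt2c (chr5:25271798-25498783, minus strand, mm10), the least abundant of the 10. Kmt2c was measured at 5.73, 6.53 and 5.65 TPM in WT and at 5.64, 7.82 and 7.13 TPM in KO. The KO samples spanned the whole WT range (log2 fold change 0.17, SE 0.14, limma adjusted p = 0.422). The log2 fold change of Kmt2c was 0.08 without KO 7 and 0.28 without KO 3. Gm42585, annotated on the opposite strand, shares 274 bp with its exons.

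MLL1, known from leukaemia translocations and from maintenance of homeobox gene expression, is encoded by Kmt2a (chr9:44803355-44881296, minus strand, mm10). Kmt2a was measured at 22.7, 22.8 and 21.4 TPM in WT and at 20.9, 25.7 and 24.3 TPM in KO. The groups overlapped, with KO 3 below all WT samples and the other KO samples above them (log2 fold change 0.08, SE 0.11, limma adjusted p = 0.639). The log2 fold change of Kmt2a was 0.02 without KO 7 and 0.16 without KO 3. AC061963.1, annotated on the opposite strand, shares 378 bp with the exons of Kmt2a. MLL2 trimethylates H3K4 at bivalent promoters and is encoded by Kmt2b (chr7:30568858-30588726, minus strand, mm10). Kmt2b was measured at 24.8, 25.8 and 23.4 TPM in WT and at 26.5, 30.8 and 30.0 TPM in KO. The groups did not overlap and the KO mean was 118% of WT, but the difference did not pass the test (log2 fold change 0.23, SE 0.11, limma adjusted p = 0.137). The adjusted p was 0.00284 with median-of-ratios scaling and 0.00342 with voom, and from 0.0112 to 0.357 under the other alternatives, with a log2 fold change of at most 0.33.

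The SET1 enzymes carry an RNA recognition motif and act with CXXC1 and WDR82. Setd1b (chr5:123142193-123168629, plus strand, mm10) was measured at 14.7, 17.4 and 16.0 TPM in WT and at 17.1, 20.4 and 18.2 TPM in KO. WT 5 lay within the KO range, so the groups overlapped (log2 fold change 0.20, SE 0.12, limma adjusted p = 0.229). Setd1a (chr7:127776670-127800122, plus strand, mm10) was measured at 11.1, 13.1 and 12.8 TPM in WT and at 10.5, 14.6 and 12.7 TPM in KO, with no difference beyond the spread (log2 fold change 0.02, SE 0.14, limma adjusted p = 0.932). The Setd1a value is uncertain, because 3523 bp of its 6795 bp of exons are shared with Gm49388, annotated on the same strand and not in the table, and its sign turned to -0.05 without WT 4 and -0.08 without KO 7.

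**Figure D2:**
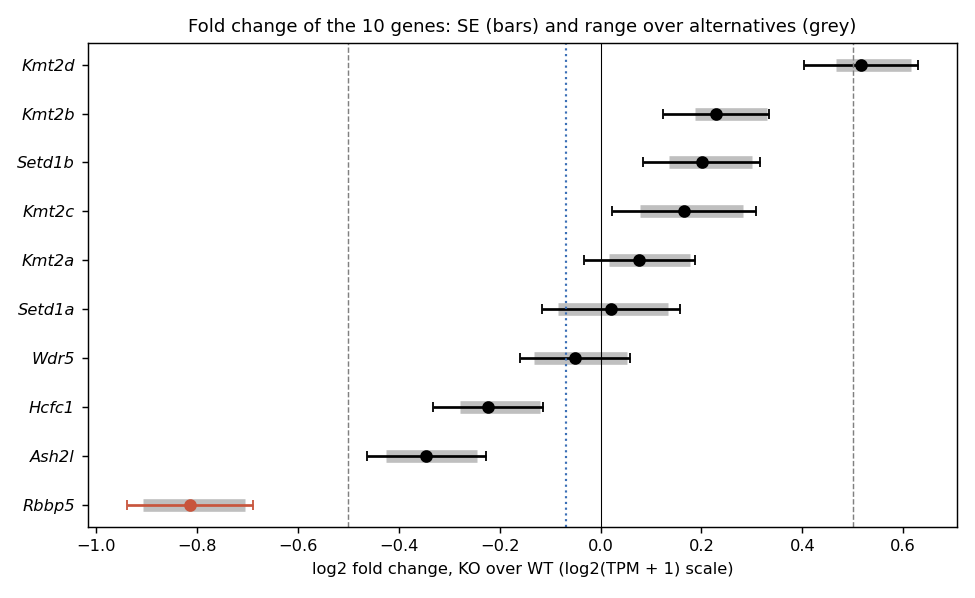
Log2 fold change of KO over WT (x axis, log2(TPM + 1) scale) for the 10 genes. Points are estimates, thin bars are ± 1 SE and thick grey bars span all alternatives; dashed lines mark the limits of the call, the solid line 0 and the dotted line the median of all genes tested. Rbbp5 (red, -0.81) is called, and Kmt2d (0.52) lies past the limit with an adjusted p of 0.00857.

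The level per length, in TPM, also ordered the genes within WT cells. Hcfc1 averaged 90.2 TPM, Wdr5 51.8, Rbbp5 29.0, Kmt2b 24.7, Kmt2a 22.3, Ash2l 20.9, Setd1b 16.0, Kmt2d 14.4, Setd1a 12.4 and Kmt2c 5.97 TPM. Neighbours in this order did not overlap among WT samples except Kmt2a with Ash2l and Setd1b with Kmt2d. The order depends on the exon length assigned to each gene. Ash2l, with 8969 bp of exons, held 1602, 1681 and 1629 reads in WT 4, 5 and 8. Rbbp5, with 3930 bp, ranked above it in TPM with 939, 1050 and 1013 reads. In KO cells Rbbp5 averaged 16.2 TPM, below Kmt2b (29.1), Kmt2a (23.6), Kmt2d (21.1) and Setd1b (18.6) and nearly level with Ash2l (16.25). Kmt2d thus lay above Setd1b, Ash2l and Rbbp5 in KO.

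Samples of 1 group moved together across these genes. In all 10 genes KO 3 was lowest and KO 7 highest of the KO samples, an order that 57.2% of all tested genes shared. WT 8 was the lowest WT sample in 8 of 10 genes, against 62.1% of tested genes. With Gm23935 and the next most abundant RNA, Gm24270, removed and TPM rescaled, the KO order held in 3 of 10 genes, against 22.2% of tested genes, and WT 8 was lowest in 2 of 10, against 27.5%. KO 3 and WT 8 were the samples where Gm23935 was highest, at 25.6% and 24.3% of TPM.

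A ratio of 2 genes within a sample does not depend on that scaling. Rbbp5 over Wdr5 was 0.537, 0.559 and 0.589 in WT and 0.299, 0.353 and 0.318 in KO. Every KO ratio lay below every WT ratio, with a log2 difference of -0.80. Ash2l over Wdr5 averaged 0.403 ± 0.0112 in WT and 0.325 ± 0.0210 in KO (log2 difference -0.31). In both ratios the groups were apart.

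Within each pair of paralogs the first-named gene was lower relative to the other in KO. Kmt2c over Kmt2d was 0.394, 0.434 and 0.416 in WT and 0.301, 0.346 and 0.325 in KO, a log2 difference of -0.36. Kmt2a over Kmt2b averaged 0.904 ± 0.0176 in WT and 0.811 ± 0.0224 in KO (log2 difference -0.16). Setd1a over Setd1b averaged 0.771 ± 0.0292 in WT and 0.676 ± 0.0537 in KO (log2 difference -0.19), subject to the shared exons of Setd1a. This difference was -0.125 without KO 3 and -0.234 without KO 7. The groups did not overlap in any of the 5 ratios. Each gave p = 0.1 in a two-sided exact permutation test, the smallest that 3 against 3 allows, and 0.1 after Benjamini-Hochberg adjustment over the 5. As single genes, Rbbp5, Ash2l, Kmt2b and Kmt2d were apart too. Of all genes tested, 29.9% did not overlap with KO lower and 13.3% with KO higher. The share of all gene pairs with ratios apart was not determined.

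The summed level of the 6 catalytic genes was 95.7 ± 4.40 TPM in WT and 112 ± 11.4 TPM in KO (exact permutation p = 0.2, n = 3 each). Kmt2d took 15.6%, 14.9% and 14.6% of that sum in WT and 18.8%, 18.5% and 19.2% in KO. Its share was thus higher in every KO sample, by 3.80 percentage points on average (exact permutation p = 0.1, adjusted p = 0.3 over the 6 shares). The share of Kmt2a was 23.3 ± 0.823% in WT and 21.1 ± 0.125% in KO (exact permutation p = 0.1, adjusted p = 0.3). Setd1a differed by -1.68 percentage points (exact permutation p = 0.2), and the shares of Kmt2b, Kmt2c and Setd1b by 0.29, -0.12 and -0.10 points.

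The promoters of Rbbp5, Wdr5 and Kmt2d are shown because these genes gave the fall, the overlapping groups and the largest positive difference. CpG content is of interest here because the CXXC domains of MLL1, MLL2 and CXXC1 bind unmethylated CpG dinucleotides. Sequences are from RefSeq on GRCm38.p6, 5′ to 3′ on the strand of the gene, from 250 to 11 bases before the annotated start, with each CpG in capitals. The windows are chr1:132477117-132477356 (plus), chr2:27514897-27515136 (plus) and chr15:98871216-98871455 (minus).
Rbbp5: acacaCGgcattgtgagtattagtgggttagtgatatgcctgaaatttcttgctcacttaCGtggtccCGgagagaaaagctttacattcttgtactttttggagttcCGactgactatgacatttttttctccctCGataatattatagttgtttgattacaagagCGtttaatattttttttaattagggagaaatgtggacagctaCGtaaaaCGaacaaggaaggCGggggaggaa
Wdr5: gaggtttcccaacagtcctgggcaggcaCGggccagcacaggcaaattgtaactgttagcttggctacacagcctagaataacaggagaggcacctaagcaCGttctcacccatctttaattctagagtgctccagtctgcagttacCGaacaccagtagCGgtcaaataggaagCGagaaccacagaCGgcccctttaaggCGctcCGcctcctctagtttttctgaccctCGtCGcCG
Kmt2d: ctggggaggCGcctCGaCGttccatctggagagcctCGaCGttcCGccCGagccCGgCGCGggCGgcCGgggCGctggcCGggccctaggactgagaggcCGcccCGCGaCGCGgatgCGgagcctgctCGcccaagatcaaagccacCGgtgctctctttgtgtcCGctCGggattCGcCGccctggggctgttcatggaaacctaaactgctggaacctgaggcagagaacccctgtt

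The Rbbp5 window held 9 CpG and 38.8% GC. Of 32851 windows of the same 240 bases, 38.9% held at least as many CpG and 10.7% had a GC content as low or lower. The Wdr5 window held 11 CpG (34.1% of windows held at least as many) and 53.8% GC. The Kmt2d window held 26 CpG (8.40% of windows) and 68.8% GC, against medians of 5 CpG and 52.1% GC over all windows. The windows of the other matched genes held 46 CpG for Kmt2c, 28 for Kmt2a, 25 for Setd1a and 18 for Hcfc1. The Setd1a window overlaps annotated exons of Setd1a itself. Whether CpG content and fold change are related was not tested. Kmt2b, Setd1b and Ash2l were not matched in the promoter table.

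The remaining subunits of these complexes were read from a separate list of 12 genes, of which 11 were tested. Bod1 and Bod1l, which encode related proteins (BOD1L is a partner of SETD1A), passed the call as lower and none passed as higher. Bod1 was measured at 49.8, 49.7 and 46.7 TPM in WT and at 25.8, 30.3 and 26.4 TPM in KO (log2 fold change -0.80, SE 0.10, limma adjusted p = 0.000689). Bod1l was measured at 23.6, 22.1 and 18.1 TPM in WT and at 11.3, 12.7 and 12.1 TPM in KO (log2 fold change -0.76, SE 0.12, limma adjusted p = 0.00207). For both genes the groups were well apart, and the KO mean was 56.5% of WT for Bod1 and 56.7% for Bod1l, against 55.8% for Rbbp5. The median log2 fold change of the 11 was -0.34, and 6 of them did not overlap between groups with KO lower. Over all genes tested, 9.03% were called lower and 29.9% did not overlap with KO lower. The list was written with earlier results of these data known, so these shares are a description only. Without KO 10 neither Bod1 nor Bod1l passed the call, and Bod1l also lost it when WT 4, WT 5, KO 3 or KO 7 was left out.

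Hcfc2, Cxxc1 and Dpy30 were picked from that list after their values were seen, as a paralog of Hcfc1, the CpG-binding SET1 subunit and the remaining core subunit. Hcfc2 was measured at 16.2, 15.9 and 15.8 TPM in WT and at 9.10, 11.01 and 12.01 TPM in KO (log2 fold change -0.55, limma adjusted p = 0.00954). Cxxc1 was measured at 32.4, 36.9 and 36.6 TPM in WT and at 24.3, 27.5 and 25.2 TPM in KO (log2 fold change -0.44, limma adjusted p = 0.0120). Dpy30 was measured at 36.5, 30.9 and 31.4 TPM in WT and at 20.6, 26.4 and 26.5 TPM in KO (log2 fold change -0.42, limma adjusted p = 0.0362). None of the 3 passed the call, and in each all KO samples lay below all WT samples. Hcfc2 was called lower with a filter at 10 TPM, with removal of the 2 most abundant RNAs, with voom and at an adjusted p under 0.05. Not all of the list lay lower in KO. Wdr82, the other SET1 partner, had a log2 fold change of 0.09 (limma adjusted p = 0.631), Ncoa6 of 0.02 and Paxip1 of 0.02, and their groups overlapped. The largest positive value of the list was that of Kdm6a, an X-linked H3K27 demethylase of the MLL3 and MLL4 complexes, at 0.31 (limma adjusted p = 0.216), with 14.0 TPM in KO 7 against 7.56 to 10.1 TPM in the other 5 samples.

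Genes that remove, read or parallel H3K4 methylation were listed in the same way. None of 8 H3K4 demethylase genes passed the limma call, against 10.7% of all genes tested, and 1 had an unadjusted p under 0.05, against 39.4%. That gene was Kdm1b, a flavin-dependent demethylase, at 8.29, 9.48 and 7.39 TPM in WT and 4.03, 6.54 and 4.77 TPM in KO (log2 fold change -0.63, limma adjusted p = 0.0212). Its groups did not overlap, and it was called lower with voom. The largest positive value was that of X-linked Kdm5c, 0.35 (limma adjusted p = 0.197), with 73.6 TPM in KO 7 against 39.2 to 49.1 TPM in the other 5 samples, and the largest negative value that of Y-linked Kdm5d, -0.91 (limma adjusted p = 0.243), with 0 TPM in KO 7. Of 12 tested genes for readers of H3K4 methylation, 1 passed the call as lower and none as higher. This share is close to the 9.03% of all genes tested that were called lower. The called reader gene was Taf3, a TFIID subunit that binds trimethylated H3K4, measured at 6.70, 6.94 and 6.02 TPM in WT and at 1.83, 2.88 and 2.66 TPM in KO (log2 fold change -1.14, SE 0.16, limma adjusted p = 0.00105). Spin1 had the largest positive value, 0.22 (limma adjusted p = 0.206).

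Of 20 genes for other histone lysine methyltransferases, Setdb2 and Ezh1 passed the call as lower and none as higher. That again is close to the 9.03% called lower over all genes tested. Without passing through the call, 6 of the 20 did not overlap with KO lower and 1 with KO higher, against 29.9% and 13.3% of all genes tested. Setdb2, related to H3K9 methyltransferases, had a log2 fold change of -1.11 (limma adjusted p = 0.000640). Ezh1, an H3K27 methyltransferase of Polycomb complex PRC2, had -0.83 (limma adjusted p = 0.00366), and Kmt5b the largest positive value, 0.30 (limma adjusted p = 0.108). Ezh1 lost the call with any 1 sample left out, whereas Setdb2 and Taf3 kept it. The median of the 20 genes was -0.08, near that of all genes tested.

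Among 7 genes of the NSL complex, including its cofactor Ogt, only Kansl1 passed the call, against 10.7% of all genes tested. Kat8, the acetyltransferase of the complex and named after its values were seen, was lower in every KO sample than in every WT sample without passing the call (67.3% of WT, log2 fold change -0.52, limma adjusted p = 0.0312). Kansl2 had the largest positive value, 0.45 (limma adjusted p = 0.0117), and was called higher with median-of-ratios scaling alone. None of 8 homeobox genes known to depend on MLL proteins passed the limma call or the voom call, and 2 had an unadjusted p under 0.05, against 39.4% of all genes tested. With 10.7% of all genes tested called, a count of 0 in 8 is near the background. Hoxa10 stood at 0.40 (limma adjusted p = 0.0792) and Hoxc8 at -0.37 (limma adjusted p = 0.107).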

How the data were processed

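Processed RNA-seq values of 6 samples were used. Reads were aligned by the authors to mm10 with STAR and tested with DESeq2, and the submitters' processing notes list Bowtie 0.12.2. The counting program, its annotation and its use of strand are not given in the sources used here. The authors deposited expression as TPM, with the same sum in each sample. The deposited log2 fold changes and adjusted p-values hold the authors' own comparison and were not used.

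Samples were grouped by their titles. Gene positions and exon lengths came from GENCODE M21, in which 26876 of 26898 identifiers were found. A gene was kept where the WT or the KO mean reached 1 TPM. Groups were compared by limma 3.58.1 (trended variance, R 4.3.3) after transforming values to log2(TPM + 1). Fold changes are on that scale, which understates changes of low genes. As in the study, a gene was called where its Benjamini-Hochberg adjusted p was under 0.005 and its log2 fold change beyond 0.5. Ratios and shares were compared by two-sided exact permutation tests (SciPy 1.17.1), for which p cannot go below 0.1.

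TPM times exon length was a whole multiple of 1 step for 100.0% of 10883 to 11939 values per sample (tolerance 0.05), which gave the reads. They served for depth and for voom, an alternative chosen after seeing the data. Other alternatives were the pseudocount, the filter, the scaling, removal of the 2 most abundant RNAs, the variance trend, the thresholds and each sample left out. For the shares of the catalytic sum, leaving a sample out was also not planned. The fit was tested on simulated data.

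The 10 genes and the lists were chosen with earlier results of these data known. Every one of the 10 genes and Kansl1 was named, and of each list other than those of markers the called genes and the largest positive and negative value. In bulk RNA, fewer cells of a type and less RNA per cell cannot be told apart. The labels do not say that the samples were separate animals, but the study's methods give 3 mice per genotype.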

Additional observations from a re-analysis of the deposited data

How the results depend on the processing

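Directions of the 10 genes were mostly stable. Over alternatives that kept all 6 samples, 63 of 69 comparisons of a gene with its value in the report kept direction and outcome of the call. The call takes adjusted p and fold change together, so Ash2l and Kmt2b counted as kept where only their adjusted p fell under 0.005. In 4 (Kmt2d) the call was gained and in 1 (Rbbp5, adjusted p = 0.00887 without a filter) it was lost. A further 1 turned sign (Wdr5, 0.052 with median-of-ratios scaling). With 1 sample left out, 53 of 60 were kept, 4 (Rbbp5) lost the call and 3 turned sign, namely Setd1a (-0.048 without WT 4 and -0.084 without KO 7, in a range up to 0.134) and Wdr5 (0.009 without KO 3, in a range down to -0.131). Kmt2c gave no value with a filter at a mean of 10 TPM. The causes were not tested.

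The number of the 10 genes called was 0 without a filter, 2 (Rbbp5 and Kmt2d) with a filter at 10 TPM, median-of-ratios scaling, removal of 2 RNAs, voom or an adjusted p under 0.05, and 0 to 1 with a sample left out. Of all genes, 341 were called without a filter (26898 tested), 2582 with voom, 3147 at an adjusted p under 0.05 and 589 to 904 with a sample left out. The share of lower calls was 84.7%, but 76.5% with the 10 TPM filter and 75.3% with median-of-ratios scaling, under which the median of all genes moved by 0.09. With 1 sample left out this share was between 77.1% (without WT 4) and 92.1% (without KO 7). The 242 higher calls became 473 with median-of-ratios scaling, 65 without KO 7 and 62 without KO 10. Of the other 6 lists, 6 genes were called, but 2 (Bod1 and Kansl1) without a filter, 11 at an adjusted p under 0.05 and 2 to 5 with a sample left out. Of the other complex subunits 2 were called, but 1 without a filter, 3 (with Hcfc2) with a filter at 10 TPM, removal of 2 RNAs, voom or an adjusted p under 0.05, and 0 to 2 with a sample left out. Shares of the catalytic sum turned sign with a sample left out for Kmt2b (-0.02 to 0.68 points), Kmt2c (-0.28 to 0.09) and Setd1b (-0.63 to 0.25).

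No paired analysis was possible because WT 4, 5 and 8 and KO 3, 7 and 10 share no replicate number. With 3 samples per group, a difference inside the spread is not shown to be absent.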
